A study of Mus musculus with 8 samples.

Results

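In mouse P19 cells, 38 genes stood at least 4-fold lower than in the GFP control under both MyoD and NeuroD2, 2 factors that drive separate lineages. These 38 are described here out of 37558 genes in the count table, of which 11065 reached 5 CPM in GFP. CPM is a gene's count divided by the library's total count and multiplied by 1000000, and L is log2(CPM + 0.5). A gene was a member when it had at least 5 CPM in GFP and its L was at least 2 below GFP in both the MyoD and the NeuroD2 library. The members were thus chosen by their measured levels in those 3 libraries, which are given as a description. The readout that the rule did not use is the level of the members in the other 5 libraries.

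P19 is a mouse embryonal carcinoma line that can form neurons or muscle in culture. A lentivirus brought in GFP or MyoD or NeuroD2 alone, or a chimera: MyoD with the basic helix-loop-helix (bHLH) domain of NeuroD2. A pair of mutants of this chimera, named WC and WCS without a further definition in the labels, completed the set. For the chimera and WCS there was also a culture at a multiplicity of infection (MOI, the ratio of virus to cells) of 100. The MOI of the other 6 cultures is not in the labels. All 8 cultures, the GFP control included, were infected in the presence of polybrene and moved to a neuronal medium with B27 supplement. Each group was 1 culture of 1 cell line with 1 poly(A)-selected library, so no group had a replicate and a difference of 2 libraries has no replicate check. The promoter that drives the constructs and the harvest time are not in the labels, and RNA was extracted by 1 of 2 methods without a record of which.

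MyoD, a master regulator of skeletal muscle, and NeuroD2, a regulator of neuronal differentiation, both bind E-boxes, short DNA elements of the form CANNTG, as dimers with E-proteins. They are known chiefly as activators of their lineage genes. Cells that leave the undifferentiated state also shut down genes of that state, such as pluripotency factors, and change adhesion, cytoskeleton and growth factor signalling.

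Library totals ran from 26410500 counts in the chimera to 43984066 in GFP, and 3 counts correspond to 0.0682 to 0.114 CPM. Myod1, a reading of the delivered MyoD-based constructs, stood at 0.637 CPM in GFP and at 278 CPM in MyoD. It was at 116 CPM in the chimera, at 105 CPM in WC and at 76.5 CPM in WCS, and at 569 and 930 CPM in the chimera and WCS at MOI 100. Neurod2 stood at 2.34 CPM in GFP and at 186 CPM in the NeuroD2 library. For both genes, reads of the delivered construct and of the cell's own gene were not separated. The embryonal carcinoma marker Pou5f1 was present in every library, from 31.6 CPM in WCS at MOI 100 to 1148 CPM in GFP. Libraries also stood apart outside these genes. The 7S RNA gene Rn7s6 was low, at 0.568 to 1.39 CPM, in NeuroD2, the chimera and both libraries at MOI 100, and its level in the remaining 4 libraries was 12.7 to 15.2 CPM. The comparison of the chimera at the 2 MOI labels lies within the low Rn7s6 libraries, and that of WCS crosses the split.

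All 38 members had their highest level of the 8 libraries in GFP. In GFP they ranged from 5.93 CPM for Ptprtos to 255 CPM for Thbs1, with a median of 28.0 CPM. The median was 4.02 CPM in MyoD and 2.41 CPM in NeuroD2. Of the 11065 genes at the GFP minimum, 1.2% were at least 2 below GFP in L in MyoD and 1.67% in NeuroD2, and the 38 members that met both are 0.343%. The members' L was lower than in GFP by a median of 2.80 in MyoD and 3.20 in NeuroD2. Closest to the threshold on the inside were Bhlhe41, with a drop in L of 2.06 in MyoD, and Krt8 and Wnt10b, each with a drop of 2.08 in NeuroD2. Just outside were Ripply1, Npr1 and Edn1, with drops of 1.998, 1.99 and 1.99 in NeuroD2.

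**Figure D1:**
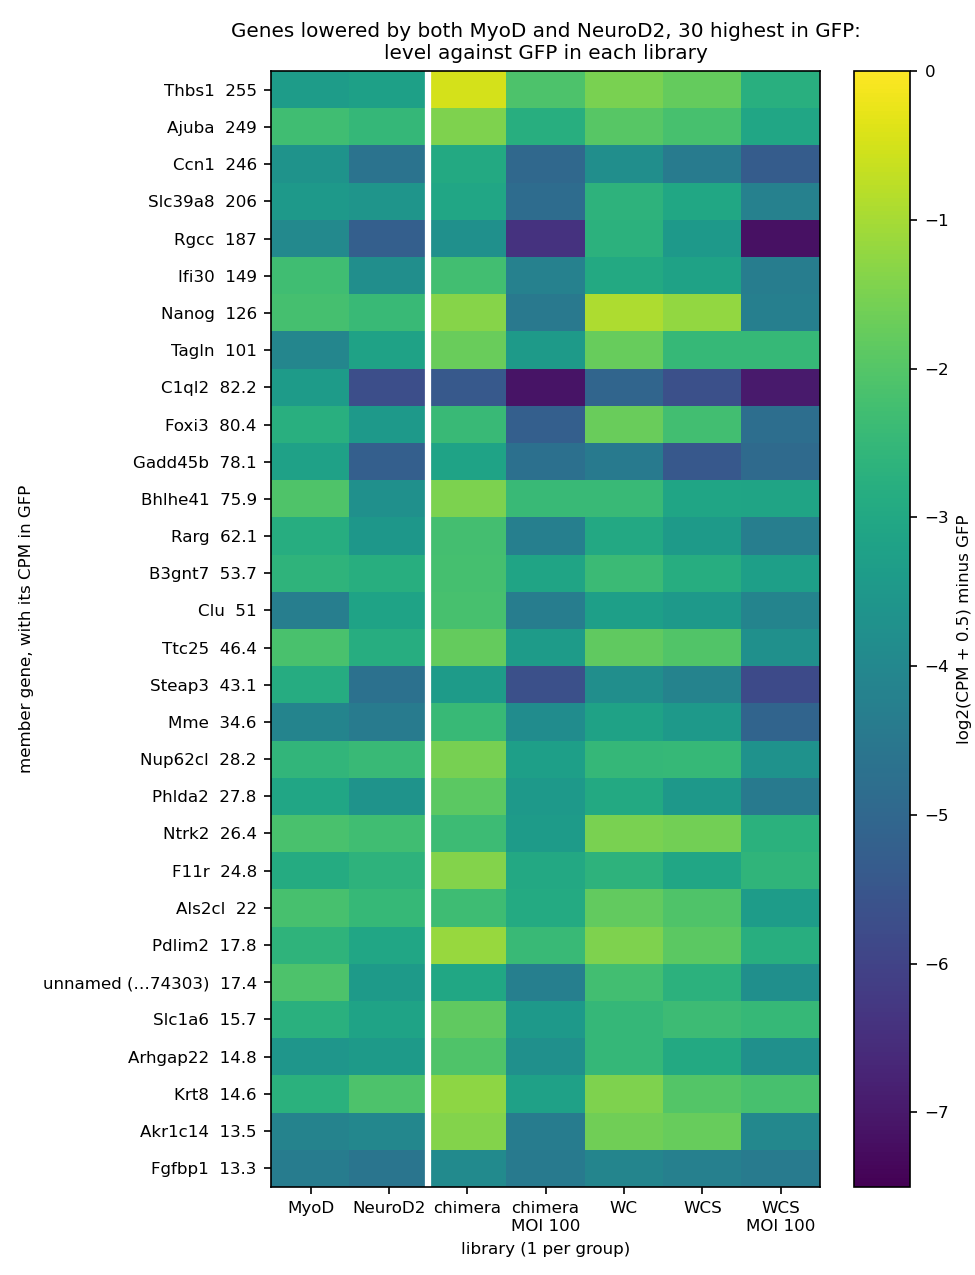
Difference in L, log2(CPM + 0.5), between each of the 7 other libraries and GFP (colour) for the 30 members with the highest CPM in GFP (rows, with that CPM beside the name, ordered by it). The 2 columns left of the white line chose the members; right of it, the columns at MOI 100 are darkest for most rows, and Thbs1 is lightest in the chimera, at -0.48.

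Several members encode proteins of the matrix, of cell junctions or of the actin cytoskeleton, a grouping by known role that carries no test. Thbs1, the matrix glycoprotein thrombospondin-1, stood at 255 CPM in GFP, 24.7 in MyoD, 26.5 in NeuroD2, 183 in the chimera, 59.2 in the chimera at MOI 100, 89.2 in WC, 74.8 in WCS and 37.2 in WCS at MOI 100. It was thus low in both rule libraries, while the chimera with no MOI label stood nearest to GFP. Ccn1, the secreted matricellular protein Cyr61 and a classical target of the Hippo effector YAP, stood at 246 CPM in GFP, 19.2 in MyoD, 9.31 in NeuroD2, 31.2 in the chimera, 7.40 in the chimera at MOI 100, 17.3 in WC, 11.4 in WCS and 5.64 in WCS at MOI 100. No construct library came near GFP. Ajuba, a LIM-domain adaptor of cell junctions that acts in the Hippo pathway, stood at 249 CPM in GFP, 50.7 in MyoD, 43.9 in NeuroD2, 90.8 in the chimera, 35.7 in the chimera at MOI 100, 64.1 in WC, 54.9 in WCS and 29.4 in WCS at MOI 100. Tagln, the actin-binding protein transgelin, stood at 101 CPM in GFP, 5.58 in MyoD, 10.7 in NeuroD2, 30.6 in the chimera, 9.03 in the chimera at MOI 100, 29.7 in WC, 17.7 in WCS and 17.6 in WCS at MOI 100. Tagln was lowest in MyoD, as was Cnn1, the smooth muscle actin-binding protein calponin 1, at 0.576 CPM against 7.34 CPM in GFP. Pdlim2, a PDZ and LIM protein bound to the actin cytoskeleton, stood at 17.8 CPM in GFP, 2.45 in MyoD and 1.70 in NeuroD2, and Arhgap22, which inactivates Rac, at 14.8, 0.793 and 0.942 CPM.

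Other members encode transcription factors or regulators inside the cell. Nanog, a core pluripotency factor, stood at 126 CPM in GFP, 27.0 in MyoD, 23.1 in NeuroD2, 49.1 in the chimera, 5.19 in the chimera at MOI 100, 66.1 in WC, 54.0 in WCS and 6.16 in WCS at MOI 100. At MOI 100 it was below both rule libraries, and without the label above both. Rgcc, a regulator of the cell cycle, stood at 187 CPM in GFP, 11.6 in MyoD, 4.46 in NeuroD2, 13.7 in the chimera, 1.71 in the chimera at MOI 100, 28.7 in WC, 16.3 in WCS and 0.816 in WCS at MOI 100. Foxi3, a forkhead factor of ectodermal placodes, stood at 80.4 CPM in GFP, 11.3 in MyoD, 6.81 in NeuroD2, 14.6 in the chimera, 1.67 in the chimera at MOI 100, 24.3 in WC, 16.4 in WCS and 2.41 in WCS at MOI 100. As for Nanog, WC was the highest of the 5 chimera and mutant libraries for Rgcc and Foxi3, and the MOI 100 libraries were the lowest. Gadd45b, a stress and growth-arrest protein, stood at 78.1 CPM in GFP, 8.03 in MyoD, 1.59 in NeuroD2, 8.37 in the chimera, 2.45 in the chimera at MOI 100, 3.19 in WC, 1.31 in WCS and 2.14 in WCS at MOI 100. Bhlhe41, itself a bHLH repressor of the circadian clock, stood at 75.9 CPM in GFP, 17.8 in MyoD, 5.25 in NeuroD2, 26.8 in the chimera, 13.9 in the chimera at MOI 100, 13.9 in WC, 8.48 in WCS and 8.30 in WCS at MOI 100. Both were highest of the 7 construct libraries in the chimera with no MOI label. Rarg, the retinoic acid receptor gamma, stood at 62.1 CPM in GFP, 8.36 in MyoD, 4.89 in NeuroD2 and between 2.72 and 12.8 CPM in the other 5 libraries.

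Ligands, receptors and epithelial surface genes were less abundant. Fgfbp1, a carrier that releases FGF from the matrix, stood at 13.3 CPM in GFP and at 0.0725 to 0.416 CPM in the 7 construct libraries, which rest on 2 to 11 counts each. Wnt10b, a Wnt ligand, stood at 7.91 CPM in GFP, 0.973 in MyoD, 1.49 in NeuroD2, 4.88 in the chimera, 4.34 in the chimera at MOI 100, 2.23 in WC, 1.51 in WCS and 2.99 in WCS at MOI 100. Wnt10b is the member that stayed nearest to GFP over the 5 libraries, with an L at least 2 below GFP in WCS alone. Ntrk2, the neurotrophin receptor TrkB, stood at 26.4 CPM in GFP, 5.51 in MyoD, 5.00 in NeuroD2 and 2.099 to 8.89 CPM in the other 5. F11r, the junctional adhesion molecule JAM-A, stood at 24.8 CPM in GFP, 2.92 in MyoD and 3.55 in NeuroD2. Krt8, a keratin of simple epithelia, stood at 14.6, 1.84 and 3.08 CPM, and Crb3, an apical polarity protein, at 7.14, 0.649 and 0.181 CPM in the same libraries. The chemokine Cxcl14 stood at 6.02 CPM in GFP, 0.360 in MyoD and 0.580 in NeuroD2.

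Transporters, enzymes and other genes completed the list. Slc39a8, a zinc transporter, stood at 206 CPM in GFP, 18.2 in MyoD, 16.7 in NeuroD2 and 6.69 to 32.1 CPM in the other 5 libraries. Ifi30, a lysosomal thiol reductase, stood at 149 CPM in GFP, 29.8 in MyoD, 10.3 in NeuroD2 and 6.97 to 30.4 CPM in the other 5. C1ql2, a secreted C1q-like protein, stood at 82.2 CPM in GFP, 7.46 in MyoD, 1.09 in NeuroD2, 1.44 in the chimera, 0.107 in the chimera at MOI 100, 1.98 in WC, 1.11 in WCS and 0.170 in WCS at MOI 100. Steap3, an iron reductase of endosomes, stood at 43.1 CPM in GFP, 5.48 in MyoD, 1.16 in NeuroD2, 3.71 in the chimera, 0.356 in the chimera at MOI 100, 2.68 in WC, 1.99 in WCS and 0.272 in WCS at MOI 100. C1ql2 and Steap3 lie side by side on chromosome 1 in the GENCODE annotation of GRCm38, with 0 protein-coding genes between them, and of the 7 construct libraries both were highest in MyoD. Mme, the membrane peptidase neprilysin, stood at 34.6 CPM in GFP, 1.51 in MyoD and 1.20 in NeuroD2, and Akr1c14, a steroid dehydrogenase, at 13.5, 0.288 and 0.362 CPM. Clu, the secreted chaperone clusterin, stood at 51.0, 2.13 and 5.36 CPM, and Phlda2, an imprinted growth regulator of the placenta, at 27.8, 2.92 and 1.74 CPM. Another 9 members, from the antisense RNA Ptprtos to the glycosyltransferase gene B3gnt7, stood at 5.93 to 53.7 CPM in GFP and include the glutamate transporter Slc1a6 and the gene ENSMUSG00000074303, which has no symbol in the annotation used.

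**Figure D2:**
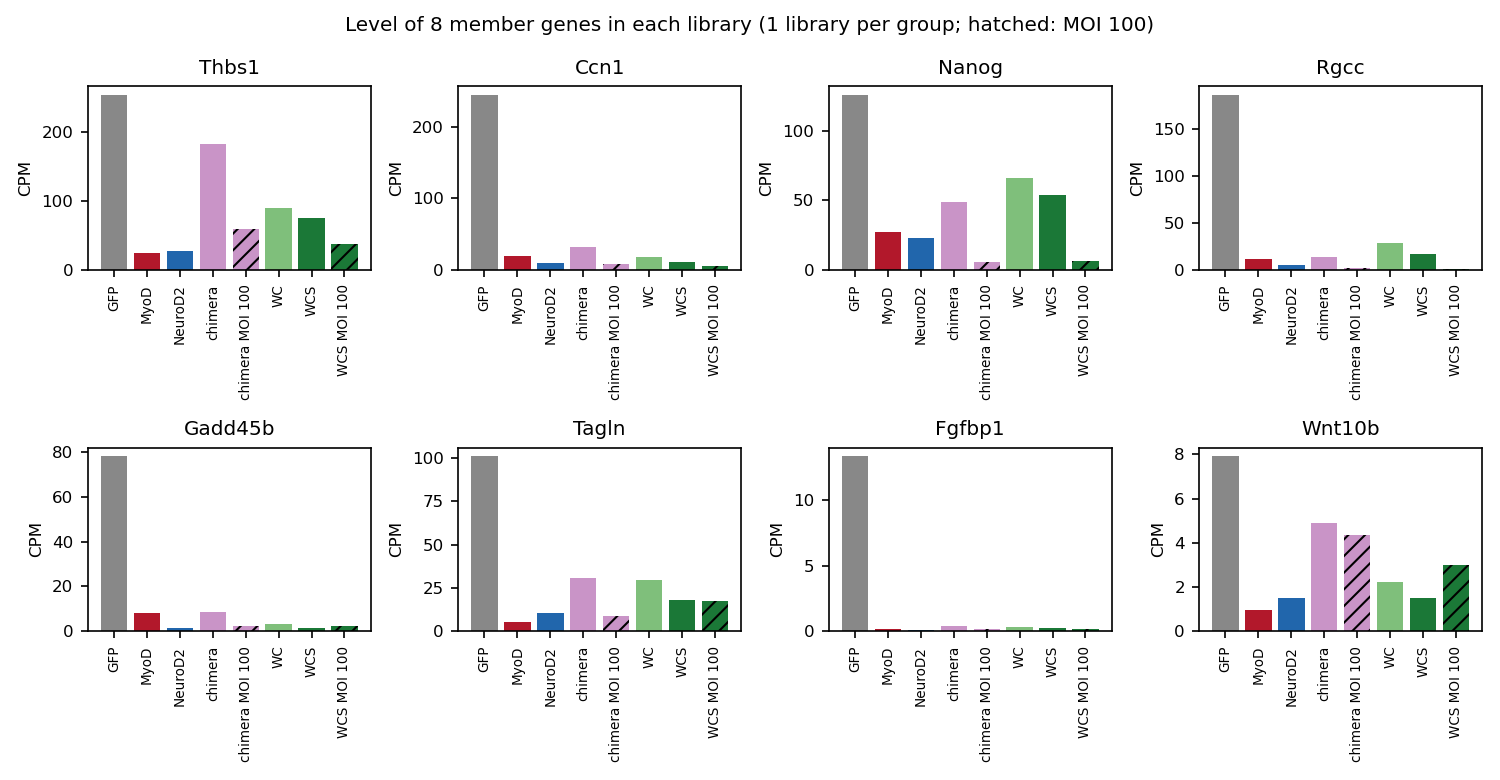
CPM (y axis, linear and from 0) of 8 members in each of the 8 libraries (x axis, 1 bar per library, hatched for MOI 100, with no error since each group had 1 library). Thbs1 stood at 183 CPM in the chimera against 255 in GFP, Nanog fell from 49.1 to 5.19 CPM and from 54.0 to 6.16 CPM with the MOI 100 label, and Wnt10b did not follow this pattern.

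By the annotation, 34 members are protein coding, 3 are of another type and 1 was not in it. The members lie on 16 chromosomes, with at most 6 on a chromosome. Exons of 12 members overlap those of another gene, and without a stated strand setting their reads cannot be told apart. Among them Gm15512 lies antisense to Arhgap22, so the 2 are not independent members, and Thbs1, Tagln, Bhlhe41 and Krt8 each have an opposite-strand partner.

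Promoter windows of 250 bases before the start, from RefSeq on GRCm38.p6, were found for 30 of the 38 members. An E-box, CANNTG, occurred in 23 of the 30 windows, or 76.7%, against 66.1% of all 27025 reference windows. Those were taken as 1 per gene symbol, with no limit on the level in GFP. CAGCTG, a palindrome that reads the same on both strands, occurred in 4 windows (13.3% against 12.7%), CAGGTG on either strand in 9 (30% against 17.1%) and CAGATG on either strand in 1 (3.33% against 14.5%). Each of these 3 is also an E-box. The core that TEAD factors bind, GGAATG, occurred on either strand in 6 windows (20% against 12.6%), CAGACA in 5 (16.7% against 17.1%), TATAAA in 3 (10% against 13.0%) and the CArG box of serum response factor in 0 (0% against 1.41%). These shares describe letters in a short window and do not mark binding sites. The following 4 windows show the range, with E-boxes in capitals: Bhlhe41 with CAGGTG at 2 places and CACGTG, Nanog with CAGGTG, Ntrk2 with the CATCTG form of CAGATG, and Ccn1, which has no E-box here and whose capitals mark the reverse complement of GGAATG and TATAAA. They lie at chr6:145865421-145865670 (minus strand), chr6:122707239-122707488 (plus strand), chr13:58806319-58806568 (plus strand) and chr3:145649986-145650235 (minus strand), and each is written along its gene's strand.
Bhlhe41: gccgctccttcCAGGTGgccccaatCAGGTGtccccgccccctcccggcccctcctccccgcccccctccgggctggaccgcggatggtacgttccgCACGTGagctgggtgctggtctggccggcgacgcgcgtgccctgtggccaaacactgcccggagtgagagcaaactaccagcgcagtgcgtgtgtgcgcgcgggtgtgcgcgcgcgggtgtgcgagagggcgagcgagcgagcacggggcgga
Nanog: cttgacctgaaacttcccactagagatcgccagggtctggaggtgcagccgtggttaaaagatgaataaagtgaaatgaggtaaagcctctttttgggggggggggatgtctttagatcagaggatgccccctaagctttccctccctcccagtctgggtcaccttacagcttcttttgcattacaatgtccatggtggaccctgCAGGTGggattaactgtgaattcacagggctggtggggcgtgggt
Ntrk2: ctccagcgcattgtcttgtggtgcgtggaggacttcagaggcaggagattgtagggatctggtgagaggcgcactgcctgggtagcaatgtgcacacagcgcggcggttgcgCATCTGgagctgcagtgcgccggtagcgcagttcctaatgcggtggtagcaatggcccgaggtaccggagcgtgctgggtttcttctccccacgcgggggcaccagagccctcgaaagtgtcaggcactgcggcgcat
Ccn1: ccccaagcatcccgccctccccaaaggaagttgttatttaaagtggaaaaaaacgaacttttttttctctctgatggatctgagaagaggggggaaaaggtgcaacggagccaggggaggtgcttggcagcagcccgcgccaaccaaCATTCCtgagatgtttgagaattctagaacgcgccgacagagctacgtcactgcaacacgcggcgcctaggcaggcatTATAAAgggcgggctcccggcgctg

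The chimera and its mutants were then set against GFP, to ask how far constructs with the NeuroD2 bHLH domain in MyoD share the lowering. All 38 members were below GFP in each of the 5 libraries, as were 29.4% of genes at the GFP minimum. In the chimera 18 members had an L at least 2 below GFP, against 0.868% of the 11065 genes at the GFP minimum, with a median difference of -1.98 (95% order-statistic interval over members -2.33 to -1.70) against 0.07 for all of those genes. In WC 24 did (0.633% of all), with a median of -2.50 (-2.84 to -1.82), and in WCS 32 did (1.08%), with a median of -2.84 (-3.09 to -2.26). At MOI 100, 37 did in the chimera (3.1%), with a median of -3.47 (-4.27 to -3.13), and 37 in WCS (3.22%), with a median of -3.59 (-4.22 to -3.06). Intervals of a median over members, here and below, treat genes as independent and hold no spread between cultures. These comparisons share the GFP library with the rule. A deviation of that single culture and an effect of the constructs cannot be told apart in them.

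Members differed in how widely they were lowered. In all 5 libraries 15 members had an L at least 2 below GFP, against 0.235% of genes at the GFP minimum, among them Ccn1, Slc39a8, Rgcc, Ifi30, C1ql2, Gadd45b, Rarg, Clu, Steap3, Mme, Fgfbp1 and Crb3. In 4 libraries 11 members did, in 3 libraries 6, in 2 libraries 5 (Thbs1, Nanog, Pdlim2, Akr1c14 and Cnn1) and in 1 library Wnt10b. The share over all genes was not computed for these counts, nor for the following counts of members within 1 of GFP. In the chimera with no MOI label 2 members were within 1 of GFP in L, Thbs1 at -0.48 and Wnt10b at -0.64. In WC this held for Nanog, at -0.93. The lowest values were those of C1ql2 in the chimera at MOI 100, at -7.09, and of Rgcc in WCS at MOI 100, at -7.15. These rest on 3 and 24 counts in those libraries. Of the 5 libraries, the chimera with no MOI label held the highest level of 29 members, against 25.3% of genes at the GFP minimum, and WC that of 9, against 10.3%. The lowest level lay in the chimera at MOI 100 for 16 members (18.9% of genes) and in WCS at MOI 100 for 17 (26.3%). It lay in WCS for 4, namely Gadd45b, F11r, Wnt10b and Crb3 (17.4%), and in WC for Cxcl14 (13.9%).

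The MOI label could be tested without any library that chose the members, since chimera and WCS each have a library with and without it. Most members tested passed as lower at MOI 100, and 0 passed as higher. In edgeR's quasi-likelihood test on these 4 libraries, with construct and MOI label as terms and Benjamini-Hochberg adjustment over all 16079 genes tested, 24 of the 36 members tested fell (adjusted p = 0.000704 to 0.0456) and 0 rose. Over all genes tested 12.2% fell and 13.4% rose, and over those with at least 5 CPM in GFP 16.1% fell and 10.9% rose. The median log2 fold change was -1.57 over the 36 members and 0.01 over all genes tested. Fgfbp1 and Crb3 were not tested, as their counts in the 4 libraries were too low.

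**Figure D3:**
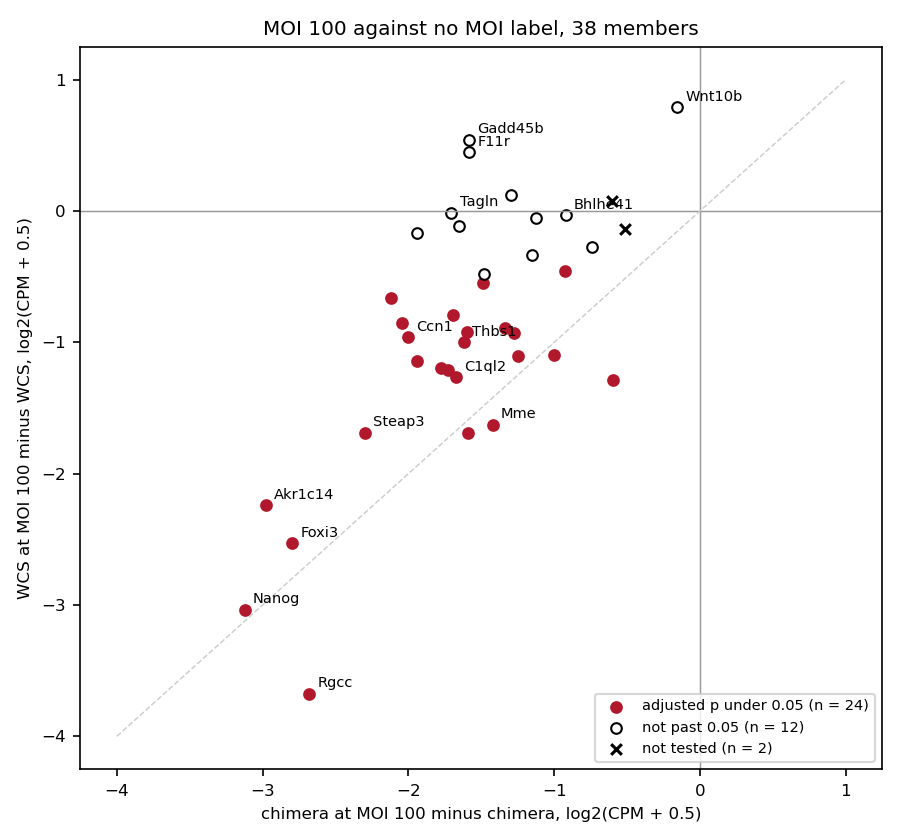
Difference in L between MOI 100 and no MOI label for the chimera (x axis) and WCS (y axis), 1 point per member, filled where the 4-library fit gave an adjusted p under 0.05 (24), open where it did not (12), crosses where it was not tested (2), with a dashed line of equal change. All 38 points lie left of 0 on the x axis and 33 lie below 0 on the y axis.

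The largest falls were those of Akr1c14 (log2 fold change -3.99, adjusted p = 0.00229), Rgcc (-3.69, adjusted p = 0.00142), Nanog (-3.27, adjusted p = 0.000704), C1ql2 (-3.23, adjusted p = 0.00718), Steap3 (-3.21, adjusted p = 0.0032) and Foxi3 (-3.02, adjusted p = 0.000938) in edgeR's test. In the chimera and WCS at MOI 100, C1ql2 rests on 3 and 5 counts and Steap3 on 10 and 8. In raw ratios Nanog was 9.46-fold lower in the chimera at MOI 100 than in the chimera (counting interval 7.96 to 11.3) and 8.78-fold lower in WCS at MOI 100 than in WCS (7.52 to 10.3). Nanog therefore fell by similar amounts under both constructs. Rgcc was 8.01-fold lower (5.91 to 11.1) in the chimera pair and 19.995-fold lower (13.3 to 31.5) in the WCS pair. Akr1c14 was 27.3-fold lower (11.4 to 85.4) and 9.71-fold lower (5.22 to 20.04), from 128 to 5 counts and from 108 to 11 counts. Among the abundant members Thbs1 fell (-1.40, adjusted p = 0.00199), as did Ajuba (-1.21, adjusted p = 0.00249), Ccn1 (-1.64, adjusted p = 0.00767), Slc39a8 (-1.62, adjusted p = 0.00344) and Ifi30 (-1.69, adjusted p = 0.0044). Mme fell by 2.004 and Ttc25, a protein of motile cilia, by 1.86 on the log2 scale. The fit has 1 residual degree of freedom per gene, and edgeR moderates each gene's spread with one pooled over the genes tested. That spread comes from how unlike the change was in the 2 constructs, so the p-values do not measure the spread between cultures. With the MOI label as the sole term 0 members passed, and 0 of all 16079 genes tested did. Leaving out any 1 of the 4 libraries leaves a label with 1 library, so no count is given. The 24 falls kept their direction in those fits, which reuse the same libraries and are no independent check.

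The pairs were also read apart, with no test of the difference between them. In the chimera pair all 38 members were lower at MOI 100, against 50% of genes at the GFP minimum. The counting interval of the ratio lay below 1 for 36, against 38.1% of genes at the GFP minimum, and above 1 for 0, against 37.6%. The median difference in L was -1.59 (-1.71 to -1.30) over members and 0.00 over those genes. In WCS 33 members were lower, against 45% of those genes, with the interval below 1 for 23 (35.5% of all) and above 1 for 3 (44.8% of all), and a median of -0.87 (-1.10 to -0.33) against 0.06. At least 4-fold lower, with 5 CPM in the higher library, were 6 members in the chimera pair (Ccn1, Rgcc, Nanog, Foxi3, Rarg and Clu), against 0.226% of genes, and 3 in the WCS pair (Rgcc, Nanog and Foxi3), against 0.483%. At least 4-fold higher were 0 members in either pair, against 1.01% of genes in the chimera pair and 1.15% in the WCS pair. The 5 CPM minimum was met by 21 and 14 members. Tagln stood at 30.6 and 9.03 CPM in the chimera pair and at 17.7 and 17.6 CPM in the WCS pair. Gadd45b, F11r and Wnt10b were the 3 members whose interval lay above 1 in WCS, at 1.31 and 2.14 CPM, 2.56 and 3.67 CPM, and 1.51 and 2.99 CPM. These 3, Tagln, Bhlhe41 and Krt8 were among the 12 tested members that did not pass the test of the MOI label.

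The same fit was read for genes that met the rule in 1 of its 2 libraries, to see where the members stand. Of genes lowered in NeuroD2 and not in MyoD, 147 in number, 99 fell at MOI 100 and 1 rose, which is 67.3% of those tested against 66.7% of the members tested. Of the 95 genes lowered in MyoD and not in NeuroD2, 94 were tested, and 16 fell (17.0%) and 20 rose. A high share of falls at MOI 100 is therefore not particular to genes lowered by both factors. The difference between the 3 groups was not tested.

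**Figure D4:**
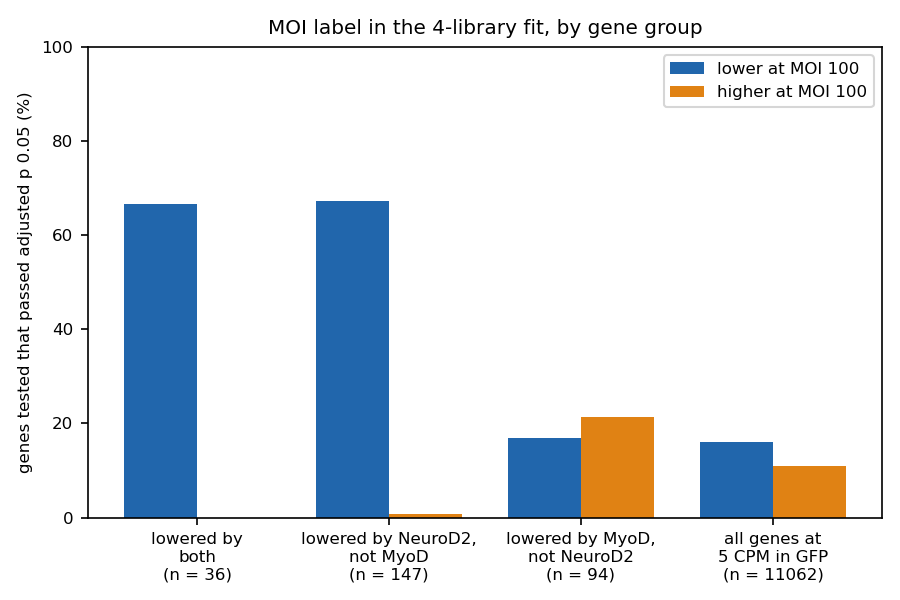
Percent of tested genes with an adjusted p under 0.05 for the MOI label in the 4-library fit (y axis), lower in blue and higher in orange, for the members (36 tested), genes lowered by NeuroD2 and not MyoD (147), genes lowered by MyoD and not NeuroD2 (94) and all genes at 5 CPM in GFP. The members and the NeuroD2 group stand at 66.7% and 67.3% lower, the MyoD group at 17.0% and all genes at 16.1%.

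Some members went below the level of both factors at MOI 100. An L at least 1 below both the MyoD and the NeuroD2 library was found in the chimera at MOI 100 for 6 members (Slc39a8, Rgcc, Nanog, C1ql2, Foxi3 and Ntrk2), against 0.985% of genes at the GFP minimum. In WCS at MOI 100 it was found for 6 (Rgcc, Nanog, C1ql2, Foxi3, Steap3 and Nup62cl), against 0.723%. C1ql2 and Steap3 rest on 10 counts or fewer in each MOI 100 library. In the chimera, WC and WCS with no MOI label it was found for 0 members, against 0.307%, 0.208% and 0.362%. The size of 1 in L was chosen after the values were seen.

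Markers of other cell states moved with the MOI label. Of 20 neuronal genes 18 rose and 0 fell at MOI 100, and their summed level went from 999 to 3354 CPM in the chimera pair and from 2961 to 7921 CPM in the WCS pair. Of 19 skeletal muscle genes tested 5 rose and 0 fell, with sums of 1379 and 2428 CPM in the chimera pair and 39.1 and 29.2 CPM in the WCS pair. Of 29 pluripotency genes tested 17 fell and 2 rose, and of 20 cell cycle genes 15 fell and 0 rose. Beside these counts, 12.2% of all genes tested fell and 13.4% rose. In these bulk libraries fewer cells of a type and less RNA per cell cannot be told apart, and the part of these shifts in the members' fall was not tested.

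The construct was compared in the same fit, WCS against the chimera. Here 4 of the 36 members tested fell in WCS and 0 rose, against 5.49% and 5.84% of all genes tested, and 4.62% and 4.97% of those with at least 5 CPM in GFP. These were Thbs1 (log2 fold change -1.01, adjusted p = 0.00731), Phlda2 (-1.64, adjusted p = 0.0205), Bhlhe41 (-1.24, adjusted p = 0.0224) and Mme (-1.43, adjusted p = 0.0412) in edgeR's test. Phlda2 stood at 7.16 and 1.99 CPM in the chimera and WCS, and at 2.03 and 0.816 CPM in the pair at MOI 100. Mme stood at 5.98 and 2.73 CPM, and at 1.92 and 0.544 CPM. Each of the 4 was thus lower in WCS at both labels. The median over the 36 members was -0.62, with 27 negative and 9 positive values, against -0.01 over all genes tested. Ajuba (-0.53, adjusted p = 0.0576), Ccn1 (-0.97, adjusted p = 0.0674) and Gadd45b (-1.47, adjusted p = 0.161) did not pass. Under DESeq2 Mme did not pass (adjusted p = 0.0755), and the other 3 did. Without the MOI label as a term 0 members passed, and 0 of all 16079 genes tested did. Without any 1 of the 4 libraries a construct is left with 1 library, so no count is given. The 4 falls kept their direction in those fits, which reuse the same libraries and are no independent check.

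The members' median for the construct lay further from 0 with no MOI label than at MOI 100, a difference that was not tested. With no label the counting interval of WCS over the chimera lay below 1 for 28 members (37.2% of genes at the GFP minimum) and above 1 for 3 (31.5%), and the median difference in L was -0.75 (-1.01 to -0.52), against -0.03 for those genes. Gadd45b was 6.38-fold lower in WCS (4.52 to 9.21), the sole member past 4-fold (0.998% of genes were lower by that much), and 0 members were 4-fold higher (0.745%). Phlda2, F11r, Wnt10b and Bhlhe41 were 3.61-, 3.60-, 3.23- and 3.17-fold lower. Ntrk2 went the other way, at 8.34 CPM in WCS against 4.70 in the chimera. At MOI 100 the interval lay below 1 for 8 members (30%) and above 1 for 6 (37.6%), and the median was -0.02 (-0.27 to 0.18). There 0 members were 4-fold apart, against 0.869% of genes higher and 1.45% lower in WCS. WC stood between, with the interval below 1 for 20 members (36%) and above 1 for 8 (31.2%) against the chimera, 0 members past 4-fold (0.745% of genes were lower and 0.575% higher) and a median of -0.45 (-0.75 to -0.16). The WC and WCS comparisons share the chimera library. Rn7s6 differed in the same comparisons, at 0.568 CPM in the chimera and 12.9 and 14.3 CPM in WC and WCS, and Myod1 differed as well, at 116 CPM in the chimera against 76.5 in WCS, and at 569 against 930 CPM at MOI 100. The part of either in the members' levels was not tested.

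WC held a higher level than WCS of 35 of the 38 members, all but Nup62cl, Slc1a6 and Cxcl14, against 50.9% of genes at the GFP minimum. The counting interval lay above 1 for 23 members, against 15.1% of genes at the GFP minimum, and below 1 for 0, against 13.7%. The median difference in L was 0.37 (0.23 to 0.45), against 0.00 for those genes, and 0 members were 4-fold apart (0.0172% of genes were higher and 0.00861% lower). Gadd45b stood at 3.19 CPM in WC and 1.31 in WCS, Rgcc at 28.7 and 16.3 CPM, and Tagln at 29.7 and 17.7 CPM. The construct reading Myod1 also stood higher in WC, at 105 CPM against 76.5 CPM, and its part was not tested. With 1 culture of each mutant no test of the difference was made.

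Of 16 lists of pathway and cell type genes, 5 held 8 of the members and 11 held none. The list of YAP and TEAD targets held Ccn1, Ajuba and Gadd45b. It also holds genes of the pathway itself, such as Yap1 and Tead1. Of its 20 genes at the GFP minimum 4 had an L at least 2 below GFP in MyoD and 6 in NeuroD2, against 1.2% and 1.67% of all genes there. Ccn1, Ajuba and Gadd45b are in both of these counts by the rule. In the 4-library fit 7 of 20 tested fell at MOI 100 and 1 rose, against 12.2% and 13.4% of all genes tested. The median log2 fold change over the 20 was -0.66. Ptpn14, a phosphatase that binds YAP, fell (-1.28, adjusted p = 0.00133), as did Yap1 itself (-1.13, adjusted p = 0.00133), in edgeR's test. In the same edgeR test Ccn2 (-0.93, adjusted p = 0.125) and Amotl2 (-0.33, adjusted p = 0.0828) did not pass. Dlc1 rose there (0.98, adjusted p = 0.0034 in edgeR's test). Ptpn14 stood at 178 CPM in GFP, 56.6 in MyoD, 46.5 in NeuroD2 and 26.8 to 97.8 CPM in the other 5 libraries. Tead1 and Amotl1 did not pass the test of the MOI label (adjusted p = 0.555 and 0.127) and stood at 114 and 100.4 CPM in GFP against 194 and 184 CPM in MyoD.

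The list of actin cytoskeleton genes and serum response factor targets held Tagln and Cnn1. Of its 28 genes at the GFP minimum 4 were at least 2 below GFP in MyoD, 2 at least 2 above and 5 at least 2 below in NeuroD2. Tagln and Cnn1 are in both of the lower counts by the rule. At MOI 100, 10 of 31 tested fell and 4 rose, against 12.2% and 13.4% of all genes tested. Tagln2, a second transgelin, fell (-1.05, adjusted p = 0.0257), and the sarcomeric tropomyosin Tpm2 stood at 1762 CPM in MyoD and 73.9 CPM in GFP. The epithelial list held Krt8. Of its 9 genes at the GFP minimum 5 were at least 2 below GFP in NeuroD2, Krt8 among them by the rule. In MyoD 1 was, and that is Krt8. At MOI 100 5 of 12 tested fell and 0 rose. Among those that fell were Cdh1 (E-cadherin, -1.85), Epcam (-1.92), Krt18 (-2.61) and Cdh3 (-1.74). The pluripotency list held Nanog, the matrix and fibroblast list Thbs1. Of 30 matrix genes tested 8 fell at MOI 100 and 4 rose, against the same shares of all genes. Pou5f1, which encodes Oct4 and is not a member, fell at MOI 100 (-2.68), and stood at 1148 CPM in GFP, 550.5 in MyoD and 113 in NeuroD2, and its difference in MyoD is smaller than the rule asks.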

How the data were processed

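RNA of 8 P19 cultures, was made into 1 poly(A)-selected library each and read on a HiSeq 2500, per the labels. The authors deposited 1 table of whole-number counts per Ensembl gene, with no normalization, and its 8 columns were used. CASAVA 1.8.2, TopHat2 2.0.8 and the build mm9 are named in the submitters' processing notes, with no role or order. How reads were assigned to genes, and whether by strand, is not given in the sources used here. Symbols were matched by identifier to GENCODE M21 (GRCm38) for 32850 of 37558 genes, and no coordinates were mixed with mm9.

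Members followed the rule in the text on CPM from column totals. Members and gene lists were chosen with earlier results of these data known. Ratios of 2 libraries carry exact conditional binomial (Clopper-Pearson) 95% intervals, which cover counting error only and no spread between cultures. PCR reads are not independent molecules, so the intervals can be too narrow even for counting error. Chimera and WCS, with and without MOI 100, were fitted in edgeR 4.0.16 (TMM, filterByExpr, quasi-likelihood test, threshold 0.05). Its p-values rest on 1 residual degree of freedom per gene and on a spread pooled over genes. DESeq2 1.42.0 was an alternative. Named members were the 20 highest in GFP, the extremes of each comparison, members past the test, those on a list and those at the threshold; others named were chosen after their values were seen. The values of 1 member are not reported here. The fits ran in R 4.3.3 and the rest in Python 3.11.15 with scipy 1.17.1.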

Additional observations from a re-analysis of the deposited data

Results flagged for a closer look

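A total of 6 results drew attention because the 2 library pairs of a contrast moved in opposite directions, each with a counting interval that leaves out 1. How many of all genes did so was not counted. Among genes at the GFP minimum such intervals were common in a single pair. They lay below and above 1 for 38.1% and 37.6% in the chimera MOI pair, and for 35.5% and 44.8% in the WCS MOI pair. For WCS over the chimera these shares were 37.2% and 31.5% with no MOI label, and 30% and 37.6% at MOI 100. Every pair is 1 library against 1, so the difference between pairs was not tested. WCS over the chimera was 1.19 with no MOI label and 0.478 at MOI 100 for Rgcc, 0.58 and 1.95 for Tagln, 0.65 and 2.51 for Slc1a6, and 0.563 and 2.51 for Krt8. Tagln, Slc1a6 and Krt8 were thus lower in WCS with no label and higher at MOI 100. MOI 100 over no label was 0.293 in the chimera and 1.63 in WCS for Gadd45b, and 0.298 and 1.44 for F11r.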

How the results depend on the processing

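The rule found 50 genes with TMM-scaled CPM, all 38 members among them, 46 with no GFP minimum, 26 with a pseudocount of 2 CPM, 32 with a GFP minimum of 10 CPM and 14 with an 8-fold rule. With a pseudocount of 2 CPM the members' median L against GFP became -1.69 in the chimera, -2.81 in the chimera at MOI 100, -2.17 in WCS and -2.80 in WCS at MOI 100. With that pseudocount the median of the chimera at MOI 100 over the chimera became -1.11, the members at least 4-fold lower there numbered 3, and those at least 4-fold lower in WCS than in the chimera 0. With members from the 8-fold rule the medians against GFP were -4.34 in the chimera at MOI 100, -3.45 in WCS and -4.29 in WCS at MOI 100. In the 4-library fit DESeq2 found 20 members lower for the MOI label and 4 for the construct, against 1454 and 779 over all genes. Of these members 19 and 3 were among edgeR's calls. Size factors of the RLE kind in edgeR gave 25 and 6, against 2042 and 976 of the 16079 genes tested. The main fit had 24 and 4, against 1955 and 882 of 16079. With a single term the member counts were 0 and 0, and 0 of all 16079 genes tested passed for either term. Leaving out each library in turn leaves 1 library on a side, so no counts are given for it. Such fits put the omitted term into the spread or have 3 libraries. The 24 falls for the MOI label and the 4 for the construct kept their direction under each of these settings. Each setting reuses all or 3 of the same 4 libraries, so a kept direction is no independent check. No paired analysis was possible because the labels carry no replicate numbers and every group had 1 library; the 4-library fit itself compares the MOI label within each construct. Members with few counts, such as Fgfbp1 and Crb3, limit what low levels can show.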
